A study of Homo sapiens with 12 samples.

Results

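The genes described here are 43 human genes that copy DNA in S phase or repair it by homologous recombination and crosslink repair, chosen by name and by what their proteins do. Of these, 42 were paired with an identifier in the deposited counts of 57370 genes, and 1 (UHRF1) was not paired and was not analysed here. The cells are HaCaT, an immortalized human keratinocyte line. HaCaT_sh cells carried a doxycycline-inducible small hairpin RNA directed at IQGAP3, a scaffold protein of the cytoskeleton, and HaCaT_ctrl cells carried a scrambled hairpin in the same vector, each line as a stable, puromycin-selected transduced culture. All 4 groups received doxycycline (1000 ng/mL), which was added 4 h after seeding. After 24 h the medium was renewed, and in HaCaT_ctrl+cyto and HaCaT_sh+cyto the new medium held 3 cytokines, namely IL-17 at 100, TNFα at 25 and IFNγ at 20 ng/mL. The cells were collected after 72 h. Each group had 3 biological replicates, so 12 RNA-seq libraries in all, and each line is a single derived culture, so that a difference between the lines cannot be told apart from a difference between cultures. The comparisons asked how the replication and repair genes differed between the lines, how they changed with the cytokine mix, and whether the change differed between the lines.

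Before S phase the origin recognition complex, CDC6 and CDT1 load the MCM2-7 ring onto DNA as an inactive helicase, and geminin (GMNN) holds CDT1 in check once replication has begun. CDC45, the GINS complex and MCM10 turn the ring into a moving helicase, the RFC complex places the PCNA clamp, and polymerases with primase, FEN1 and DNA ligase I copy and join the strands. Thymidylate synthase, thymidine kinase and ribonucleotide reductase supply the deoxynucleotides, and the Fanconi anaemia, BRCA and resection proteins restart and repair broken forks. Many of these genes are transcribed under E2F factors at the start of the cycle, and in skin their products mark the dividing basal keratinocytes.

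Promoter windows of these genes are shown because the members moved in part together and because E2F factors are known to act there. RefSeq windows of 300 bases (250 before to 50 after a start, GRCh38.p14) existed for 38 of the 42 members, 49 windows in all. An E2F spelling (TTTGGCGC, TTTGCCGC, TTTCGCGC or TTTCCCGC, searched on both strands) stood in 20 of the 49 member windows (40.8%) and in 3.31% of all 35116 windows. The spelling CCAAT, the NF-Y box, stood in 55.1% of member windows against 34.6% of all windows, and the CHR spellings of late cell cycle genes (TTTGAA or TTCGAA) stood in 4.08% against 16.4%. The windows of MCM2, MCM6, CDT1, TK1 and LIG1 follow, the genes at the extremes of the comparisons below, as 280 bases ending 30 bases after the start, with E2F and CCAAT spellings in capitals. Of the 2 windows of TK1 the one with more matches is shown. The MCM6 window held 2 E2F spellings extended to TTTGGCGCGAAA and 2 CCAAT spellings, the TK1 window 2 CCAAT spellings and no E2F spelling. A match is a description of the letters.
MCM2, chr3:127598161-127598440, plus strand: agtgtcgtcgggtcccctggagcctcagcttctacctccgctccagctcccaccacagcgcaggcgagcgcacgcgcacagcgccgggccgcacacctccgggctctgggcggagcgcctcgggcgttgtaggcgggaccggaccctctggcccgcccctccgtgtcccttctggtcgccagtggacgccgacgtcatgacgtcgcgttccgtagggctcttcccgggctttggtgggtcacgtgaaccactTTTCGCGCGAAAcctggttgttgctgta
MCM6, chr2:135876414-135876693, minus strand: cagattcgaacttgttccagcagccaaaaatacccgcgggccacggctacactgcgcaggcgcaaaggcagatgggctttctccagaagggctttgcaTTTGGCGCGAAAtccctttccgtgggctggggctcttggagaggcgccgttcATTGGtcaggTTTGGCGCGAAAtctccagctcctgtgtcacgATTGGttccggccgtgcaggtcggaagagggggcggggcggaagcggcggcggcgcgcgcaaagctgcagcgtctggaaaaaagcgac
CDT1, chr16:88803539-88803818, plus strand: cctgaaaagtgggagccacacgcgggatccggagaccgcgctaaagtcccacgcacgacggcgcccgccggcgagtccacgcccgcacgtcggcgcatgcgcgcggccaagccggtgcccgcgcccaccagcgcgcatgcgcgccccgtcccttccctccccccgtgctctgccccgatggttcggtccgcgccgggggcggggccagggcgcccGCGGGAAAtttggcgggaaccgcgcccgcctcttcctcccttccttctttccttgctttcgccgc
TK1, chr17:78187023-78187302, minus strand: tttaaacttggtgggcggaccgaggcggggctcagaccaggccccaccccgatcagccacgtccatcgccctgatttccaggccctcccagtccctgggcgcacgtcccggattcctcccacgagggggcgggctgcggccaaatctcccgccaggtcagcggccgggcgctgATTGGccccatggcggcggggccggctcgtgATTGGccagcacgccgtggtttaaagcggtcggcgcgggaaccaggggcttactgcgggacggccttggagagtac
LIG1, chr19:48170315-48170594, minus strand: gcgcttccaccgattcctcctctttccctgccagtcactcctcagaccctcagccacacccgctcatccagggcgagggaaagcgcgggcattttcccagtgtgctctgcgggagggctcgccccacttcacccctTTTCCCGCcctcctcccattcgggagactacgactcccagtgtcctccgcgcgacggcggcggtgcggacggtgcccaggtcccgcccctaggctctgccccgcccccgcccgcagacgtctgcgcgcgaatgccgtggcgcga

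Total counts per library ranged from 13079055 to 17308021, and each member had between 18 and 5255 reads in a library. IQGAP3 was measured first because it was the target. Its level was 71.98 ± 3.6 normalised CPM (SD, n = 3) in HaCaT_ctrl and 104 ± 8.7 in the libraries labelled HaCaT_sh, a log2 fold change of 0.50 ± 0.06 (SE, adjusted p = 4.7e-06) that went against the label. With cytokines it was 3.35 ± 1.2 in HaCaT_ctrl+cyto and 1.25 ± 0.36 in HaCaT_sh+cyto. Every direction below between the lines is therefore a direction between libraries as labelled. Normalised CPM are counts scaled to a common library size by TMM over all 12 libraries, and "called" means an adjusted p below 0.01 in edgeR's quasi-likelihood test and at least a 2-fold change. The keratinocyte label was checked on 10 markers: KRT5, a basal keratin, stood at 3593 normalised CPM in HaCaT_ctrl and 4429 in HaCaT_sh and at 73.9 and 154 with cytokines, and TP63, the basal transcription factor, stood between 104 and 249.2 in the group means. Other markers of the list stood higher with cytokines, such as the stress keratin KRT6A (515.5 in HaCaT_ctrl and 1157 in HaCaT_ctrl+cyto), CDH1 (363 and 883) and DSP (694 and 1311). Of the 10, 2 were called higher and 2 lower with cytokines in HaCaT_ctrl, beside 14.7% and 21.1% of all genes. The counts in that line are near these shares. In HaCaT_sh 5 were called higher and 2 lower, beside 14.9% and 21.0% of all genes. The summed normalised CPM of the 9 matched markers of fibroblasts, immune, endothelial and pigment cells was 23.9 to 26.4 in the HaCaT_ctrl libraries, 26.6 to 27.3 in HaCaT_sh, 2.95 to 4.70 in HaCaT_ctrl+cyto and 8.26 to 11.1 in HaCaT_sh+cyto. Of these, TYR was at 0 in every library and COL1A2, MLANA, PTPRC, PDGFRB and CD3E were below 0.5 in every group mean. COL1A1 (2.7 to 19 in the group means), VWF (0.17 to 5.4) and PMEL (0.62 to 4.0) were the others above 0.5, and the part of these markers in the results was not tested. In bulk RNA, fewer cells in S phase and less RNA per cell cannot be told apart.

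In single libraries nearly all members stood low or high together. HaCaT_ctrl replicate 2 was the lowest of its group in 41 of the 42 members, HaCaT_sh replicate 1 the highest of its group in 40, and HaCaT_ctrl+cyto replicate 1 the lowest of its group in 37. Values without these libraries are given beside the counts. The median coefficient of variation of the members within a group was between 8.24% and 13.9%, and the largest was 37.9% for PRIM1 in HaCaT_ctrl+cyto.

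**Figure D1:**
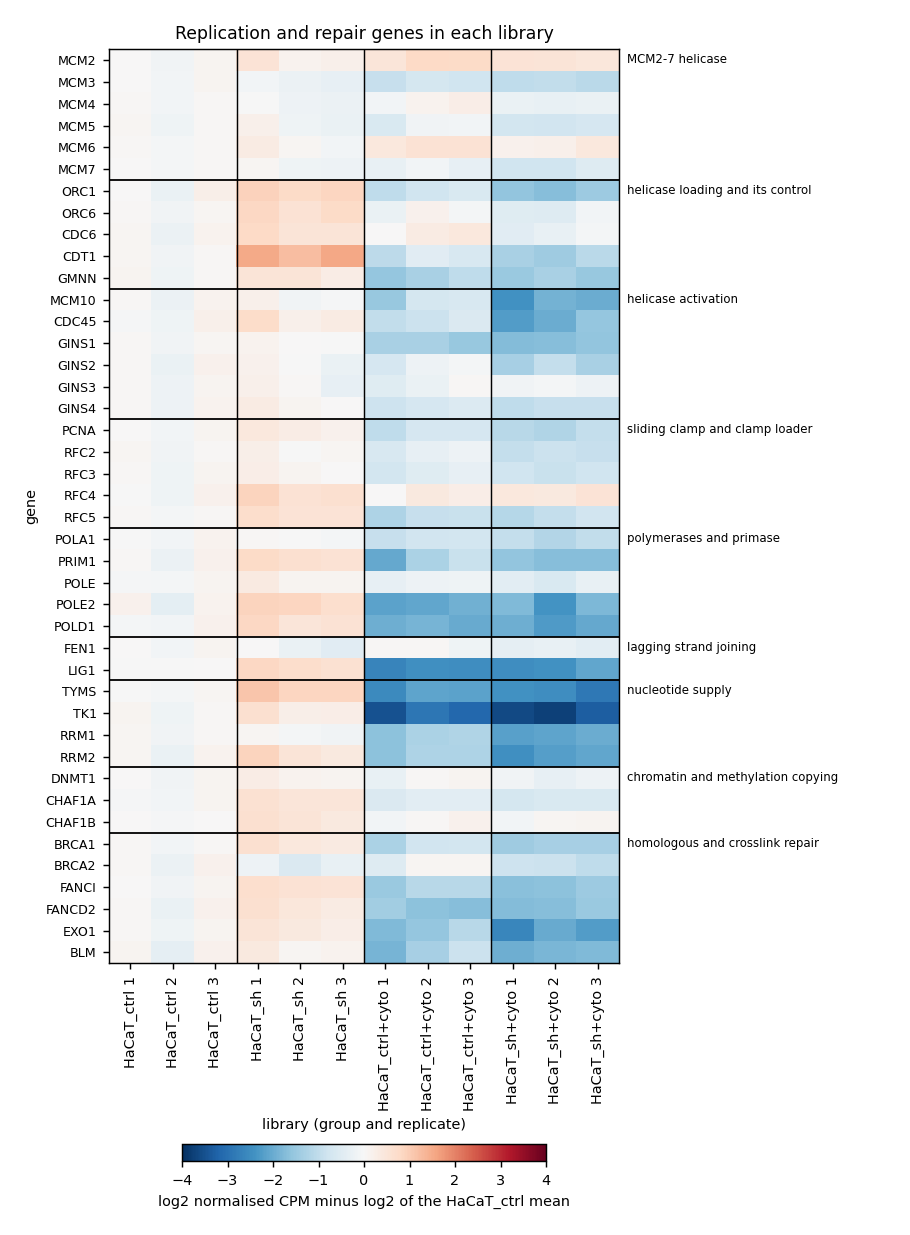
Colours give the log2 normalised CPM of each of the 42 genes (rows, in the order of their roles) in each of the 12 libraries (columns), minus the log2 of the HaCaT_ctrl mean. TK1 was the lowest gene in each of the 6 cytokine libraries, while MCM2 and MCM6 stayed above the HaCaT_ctrl mean there, and CDT1 was highest in the 3 HaCaT_sh libraries.

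With the cytokine mix, most replication and repair genes fell in both lines, and the nucleotide supply genes had the lowest medians of the 9 roles (log2 -1.84 in HaCaT_ctrl and -3.20 in HaCaT_sh). In HaCaT_ctrl+cyto against HaCaT_ctrl, 15 of the 42 members were called lower and none higher, against 21.1% of all 13687 genes called lower and 14.7% called higher. At any fold 29 were lower and 2 higher at an adjusted p below 0.01, against 35.8% and 34.9% of all genes, and the median log2 fold change of the members was -0.82 against -0.026 over all genes. In HaCaT_sh+cyto against HaCaT_sh, 27 were called lower and none higher (21.0% and 14.9% of 13480 genes), 36 were lower and none higher at any fold (36.8% and 36.0%), and the median was -1.29 against -0.023. In that line no member was higher at an unadjusted p below 0.05 in edgeR, DESeq2 or limma-voom either. The 3 libraries of HaCaT_ctrl+cyto lay all below those of HaCaT_ctrl for 29 members, as for 40.7% of all genes. In the HaCaT_sh line 38 members did so, as did 41.5% of all genes. Leaving out any 1 library kept the called counts at 14 to 17 in the first line and at 26 to 28 in the second.

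**Figure D2:**
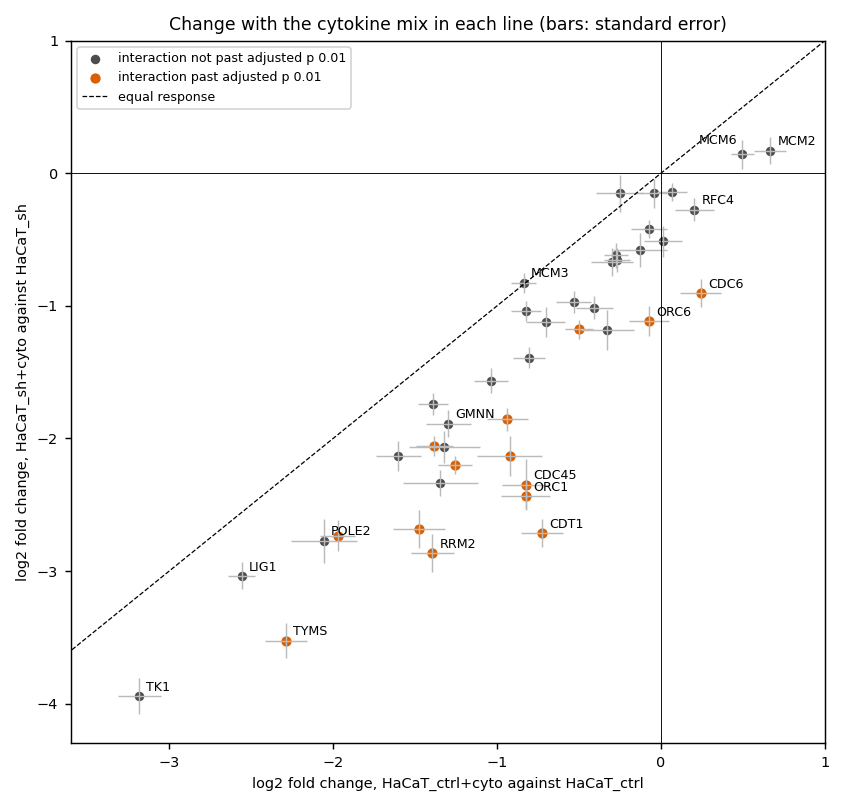
Each point is a gene, with its log2 fold change with cytokines in HaCaT_ctrl on the x axis and in HaCaT_sh on the y axis, bars for the standard error and a dashed line for equal responses. Of the 42 genes, 40 lie below the dashed line, and the 14 genes past the interaction threshold are in orange.

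The nucleotide supply genes were called lower in both lines, 4 of 4, beside 21.1% of all genes in HaCaT_ctrl and 21.0% in HaCaT_sh. TK1 (ENSG00000167900, GRCh37 chr17:76170172-76183314, minus strand), thymidine kinase of the salvage pathway, had 111, 90.6 and 107 normalised CPM in the HaCaT_ctrl libraries and 9.196, 13.8 and 11.6 in HaCaT_ctrl+cyto. It had 159.7, 121 and 125 in HaCaT_sh and 8.33, 7.79 and 10.5 in HaCaT_sh+cyto. The groups with and without cytokines were far apart in both lines, with log2 -3.18 ± 0.13 (SE), adjusted p = 1.3e-08 in HaCaT_ctrl and log2 -3.94 ± 0.14 (SE), adjusted p = 1.7e-09 in HaCaT_sh. TYMS, which makes thymidylate, had 25.4, 24.2 and 27.2 in HaCaT_ctrl and 54.9, 46.6 and 46.2 in HaCaT_sh. With cytokines it had 4.37, 5.897 and 5.75 in HaCaT_ctrl+cyto and 4.81, 4.59 and 3.53 in HaCaT_sh+cyto. Its log2 fold change was -2.29 in HaCaT_ctrl and -3.52 in HaCaT_sh, with no overlap between groups in either line.

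RRM1 and RRM2 are the large and small subunits of ribonucleotide reductase. RRM1 had 175, 152 and 173 normalised CPM in HaCaT_ctrl, 175, 159 and 151 in HaCaT_sh, 53.3, 69.3 and 73.05 in HaCaT_ctrl+cyto and 36.8, 38.9 and 42.1 in HaCaT_sh+cyto. RRM2 had 66.2, 52.5 and 69.7 in HaCaT_ctrl, 115, 89.1 and 82.3 in HaCaT_sh, 20.2, 26.4 and 26.5 in HaCaT_ctrl+cyto and 11.5, 13.5 and 14.8 in HaCaT_sh+cyto. RRM1 overlapped between the lines without cytokines, while RRM2 was higher in each HaCaT_sh library than in each HaCaT_ctrl library. The ratio of RRM2 to RRM1 counts was 0.376 ± 0.029 (SD, n = 3) in HaCaT_ctrl and 0.588 ± 0.062 in HaCaT_sh, and with cytokines it was 0.374 ± 0.010 and 0.338 ± 0.022. The groups did not overlap in 3 of its 4 comparisons, the exception being HaCaT_ctrl+cyto against HaCaT_ctrl, and a two-sided exact permutation test of 3 against 3 libraries cannot go below p = 0.1, the value it gave in those 3.

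Of the 6 subunits of the MCM2-7 ring none was called lower in either line, beside 21.1% of all genes in HaCaT_ctrl and 21.0% in HaCaT_sh. With so few genes the count is not set apart from these shares. With scaling by library size alone MCM3 was called lower in both lines, at log2 -1.05 in HaCaT_ctrl and -1.04 in HaCaT_sh. In HaCaT_ctrl+cyto MCM3 and MCM7 were lower and MCM2 and MCM6 rose, each at less than 2-fold. MCM2 (ENSG00000073111, GRCh37 chr3:127317253-127341279, plus strand) had 109.8, 97.99 and 117 normalised CPM in HaCaT_ctrl and 152, 189.9 and 185 in HaCaT_ctrl+cyto, with no overlap (log2 0.67 ± 0.10 (SE), adjusted p = 1.0e-04). In HaCaT_sh it had 159.8, 119.7 and 123.5, and 157, 154 and 147.5 in HaCaT_sh+cyto, which overlapped (log2 0.17 ± 0.10 (SE), adjusted p = 0.148). Replicate 1 stands apart in HaCaT_sh. Without it MCM2 passed the threshold at a log2 fold change of 0.32 in that line.

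MCM6 (ENSG00000076003, GRCh37 chr2:136597196-136634013, minus strand) had 64.1, 59.2 and 64.2 normalised CPM in HaCaT_ctrl and 83.03, 94.04 and 92.98 in HaCaT_ctrl+cyto, again without overlap (log2 0.50 ± 0.07 (SE), adjusted p = 9.2e-05). In HaCaT_sh it had 79.02, 66.1 and 57.6 and in HaCaT_sh+cyto 69.99, 72.02 and 84.4, which overlapped (log2 0.14 ± 0.11 (SE), adjusted p = 0.251). The increase of MCM2 and MCM6 was thus past the threshold in HaCaT_ctrl alone. The interaction test of the difference between the lines gave adjusted p = 0.0447 for MCM2 and 0.120 for MCM6 and passed for neither.

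MCM3 fell in both lines. It had 142, 130.2 and 151 normalised CPM in HaCaT_ctrl, 132, 120.2 and 112 in HaCaT_sh, 74.7, 85.96 and 81.4 in HaCaT_ctrl+cyto and 69.3, 70.8 and 67.4 in HaCaT_sh+cyto. Its log2 fold change with cytokines was -0.84 in HaCaT_ctrl and -0.83 in HaCaT_sh, and it was 1 of the 2 members with a positive interaction, GINS3 being the other, though neither passed. MCM7 had 270.2, 251 and 275 in HaCaT_ctrl, 281, 236 and 232 in HaCaT_sh, 214.5, 246 and 213 in HaCaT_ctrl+cyto and 154, 153 and 186 in HaCaT_sh+cyto. It was lower with cytokines at less than 2-fold in both lines (-0.27 and -0.62 on the log2 scale), and the pass at an adjusted p below 0.01 in HaCaT_ctrl was lost without any 1 of HaCaT_ctrl replicates 1, 2 and 3 or HaCaT_ctrl+cyto replicate 3.

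MCM4 had 185, 164 and 183 normalised CPM in HaCaT_ctrl, 175.5, 155 and 151 in HaCaT_sh, 165, 193 and 211 in HaCaT_ctrl+cyto and 148, 143.5 and 149 in HaCaT_sh+cyto, and passed the test with cytokines in neither line. MCM5 had 66.1, 55.7 and 64.7, 70.96, 55.01 and 52.3, 40.4, 56.7 and 57.9 and 37.7, 36.9 and 38.8 in the same order of groups, and fell in HaCaT_sh (log2 -0.67 ± 0.11 (SE), adjusted p = 1.9e-04) with no pass in HaCaT_ctrl (log2 -0.30 ± 0.13 (SE), adjusted p = 0.0543). The 6 subunits stand in equal number in the ring, yet their RNA levels per kilobase of the canonical transcript ranged in HaCaT_ctrl from 16.7 CPM per kb for MCM6 and 17.98 for MCM5 to 108 for MCM7. In HaCaT_ctrl+cyto the lowest was MCM5 at 14.95 and MCM2 stood at 51.1 against 31.5 before. The summed level of the 6 subunits was 817 ± 52 normalised CPM in HaCaT_ctrl, 793 ± 92 in HaCaT_sh, 812 ± 73 in HaCaT_ctrl+cyto and 646.5 ± 23 in HaCaT_sh+cyto. Those of HaCaT_sh+cyto lay below all other libraries, at the smallest p of 0.1 against either HaCaT_sh or HaCaT_ctrl+cyto.

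**Figure D3:**
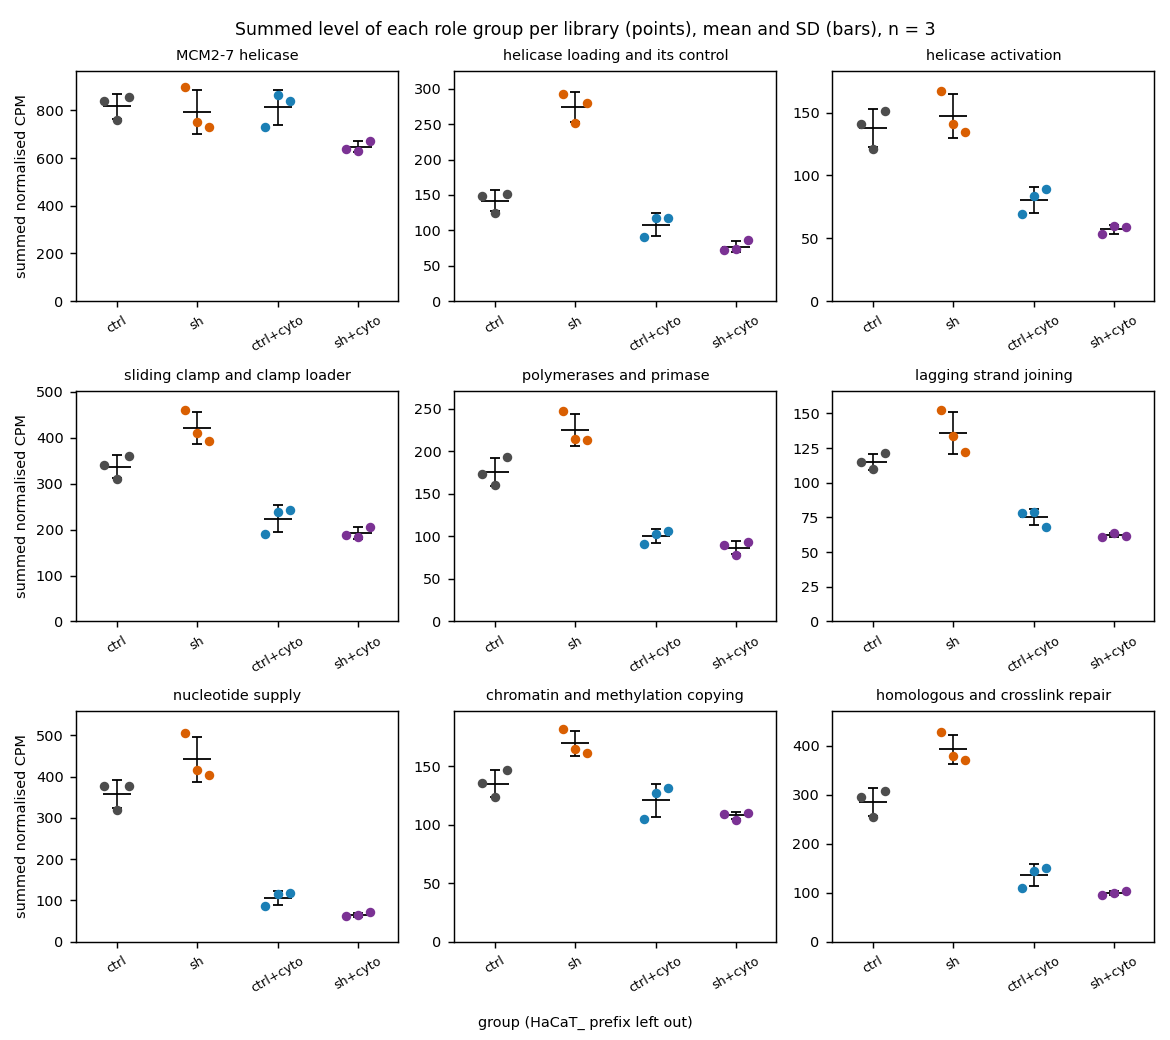
Each panel gives the summed normalised CPM (y axis) of the genes of 1 role in the 4 groups (x axis), with a point per library and bars for the mean and SD of 3. The helicase sum was 817 in HaCaT_ctrl and 812 in HaCaT_ctrl+cyto, while the nucleotide supply sum went from 358 to 106.

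The genes of helicase loading and its control, GMNN among them, had the largest median difference between the lines of the 9 roles, log2 0.70 without cytokines. All 5 were higher in HaCaT_sh there at an adjusted p below 0.01, beside 25.6% of all genes. CDT1 alone passed 2-fold, beside 3.80% of all genes called higher. CDT1 (ENSG00000167513, GRCh37 chr16:88870197-88875666, plus strand) had 48.3, 42.2 and 48.1 normalised CPM in HaCaT_ctrl and 132, 109 and 136 in HaCaT_sh. With cytokines it had 22.5, 33.5 and 29.6 in HaCaT_ctrl+cyto and 18.99, 17.4 and 21.7 in HaCaT_sh+cyto. The difference between the lines changed sign, from log2 1.41 ± 0.08 (SE), adjusted p = 1.6e-09 to log2 -0.56 ± 0.15 (SE), adjusted p = 0.0237, of which the second did not pass. CDT1 fell by 0.73 on the log2 scale with cytokines in HaCaT_ctrl and by 2.71 in HaCaT_sh, and its interaction was log2 -1.97 ± 0.18 (SE), adjusted p = 1.5e-05. GMNN, the inhibitor of CDT1, had 27.6, 22.8 and 26.6 in HaCaT_ctrl, 36.6, 36.7 and 31.7 in HaCaT_sh, 8.87, 10.4 and 12.7 in HaCaT_ctrl+cyto and 9.17, 10.5 and 9.07 in HaCaT_sh+cyto. It was called lower with cytokines in both lines (-1.30 and -1.89). The ratio of CDT1 to GMNN counts was 1.80 ± 0.050 (SD, n = 3) in HaCaT_ctrl and 3.62 ± 0.67 in HaCaT_sh, and with cytokines 2.69 ± 0.45 and 2.04 ± 0.37. It rose in HaCaT_ctrl and fell in HaCaT_sh without overlap (exact permutation p = 0.1, the smallest possible), and the lines overlapped with cytokines (exact p = 0.2).

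ORC1, the largest subunit of the origin recognition complex, had 18.1, 14.97 and 21.1 normalised CPM in HaCaT_ctrl, 34.1, 30.9 and 32.8 in HaCaT_sh, 8.998, 10.4 and 11.8 in HaCaT_ctrl+cyto and 6.05, 5.58 and 6.62 in HaCaT_sh+cyto. It was higher in HaCaT_sh without cytokines (log2 0.82 ± 0.10 (SE), adjusted p = 3.4e-06), lower with them (log2 -0.77 ± 0.16 (SE), adjusted p = 0.00692) and had an interaction of log2 -1.59 ± 0.19 (SE), adjusted p = 9.4e-05. Leaving out HaCaT_ctrl+cyto replicate 2 or 3 or any HaCaT_sh+cyto library took away the pass with cytokines. ORC6 and CDC6 did not pass with cytokines in HaCaT_ctrl (-0.08 and 0.24) and fell in HaCaT_sh (-1.11 and -0.90), with interactions of -1.02 and -1.13.

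Of the genes of helicase activation, 4 of 6 fell with cytokines in HaCaT_ctrl and 5 of 6 in HaCaT_sh at any fold, beside 35.8% and 36.8% of all genes, and none passed between the lines without cytokines. CDC45 had 15.8, 14.6 and 18.8 normalised CPM in HaCaT_ctrl, 27.2, 18.8 and 20.4 in HaCaT_sh, 8.204, 9.04 and 11.1 in HaCaT_ctrl+cyto and 3.51, 4.101 and 5.62 in HaCaT_sh+cyto. Each of the 3 HaCaT_sh+cyto libraries was below each HaCaT_ctrl+cyto library (log2 -1.10 ± 0.20 (SE), adjusted p = 0.00487). CDC45 and MCM10 were the 2 members called between the lines with cytokines. MCM10, at 7.87, 13.8 and 14.4 in HaCaT_ctrl+cyto and 4.16, 5.99 and 5.62 in HaCaT_sh+cyto, had log2 -1.20 ± 0.25 (SE), adjusted p = 0.00779. The other values of MCM10 were 23.04, 19.1 and 24.9 in HaCaT_ctrl and 25.6, 20.5 and 21.7 in HaCaT_sh, which overlapped. The median of 31 tested genes within 5 Mb of MCM10 was also lower in that comparison, at -0.40 on the log2 scale, and its part in the result was not tested. Among the GINS subunits GINS1 fell most (log2 -1.39 and -1.74), GINS2 fell in HaCaT_sh (-1.18) and did not pass in HaCaT_ctrl (-0.33) or in the interaction (log2 -0.83 ± 0.24 (SE), adjusted p = 0.0267), GINS4 fell in both (-0.70 and -1.12) and GINS3 passed in neither (-0.25 and -0.15).

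**Figure D4:**
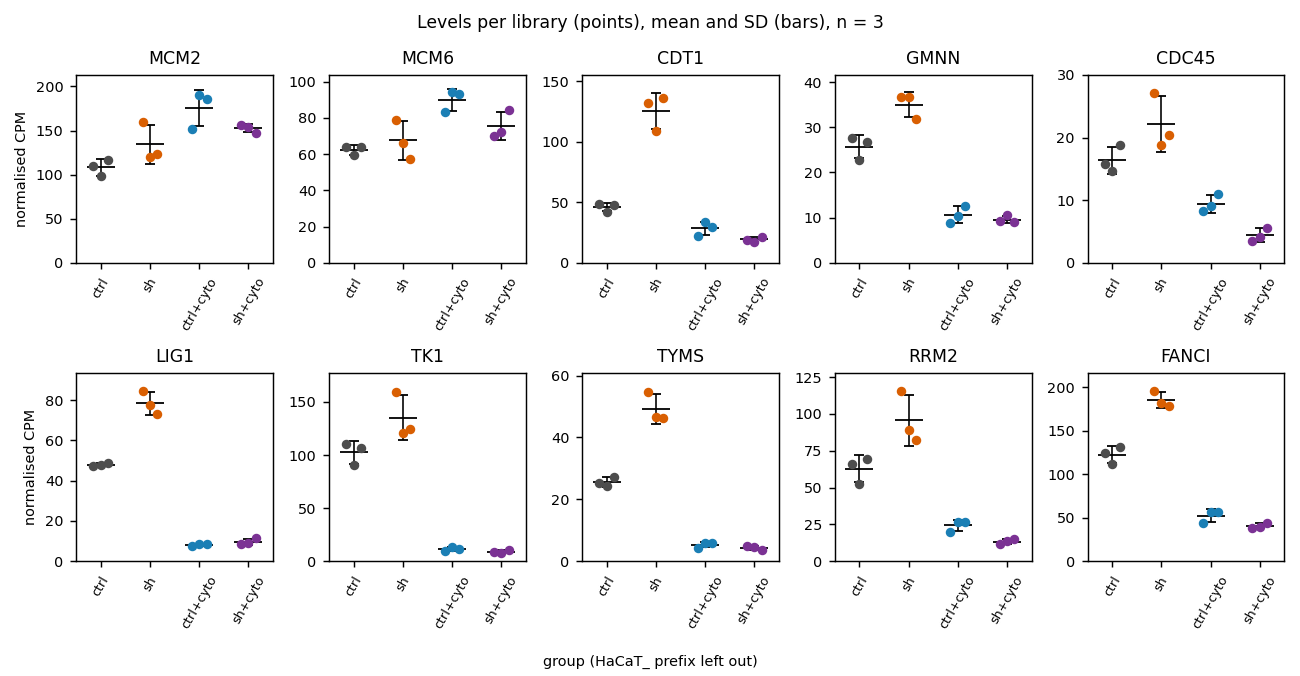
Normalised CPM (y axes, each from 0) of 10 genes in the 4 groups (x axes), with a point per library and bars for the mean and SD of 3. CDT1 stands highest in HaCaT_sh and lowest in HaCaT_sh+cyto, MCM2 stands higher in the cytokine libraries of HaCaT_ctrl, and TK1, TYMS and LIG1 stand near the bottom with cytokines in both lines.

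PCNA, the sliding clamp, had 189, 176 and 202 normalised CPM in HaCaT_ctrl, 251, 232 and 213 in HaCaT_sh, 93.5, 119.5 and 118 in HaCaT_ctrl+cyto and 87.3, 82.1 and 98.7 in HaCaT_sh+cyto. It fell in both lines (-0.81 and -1.39 on the log2 scale) and had the highest level per kilobase of all members in HaCaT_ctrl, 148 CPM per kb. Its clamp loader split: RFC5 was called lower in both lines (-1.04 and -1.56), RFC2 and RFC3 fell by less (-0.41 and -0.53 in HaCaT_ctrl, -1.01 and -0.97 in HaCaT_sh), and RFC4 passed in neither line. RFC4 had 26.7, 24.1 and 30.6 in HaCaT_ctrl, 50.4, 40.6 and 42.5 in HaCaT_sh, 27.2, 35.9 and 32.7 in HaCaT_ctrl+cyto and 36.6, 35.9 and 39.2 in HaCaT_sh+cyto. It was higher in HaCaT_sh without cytokines (log2 0.68 ± 0.09 (SE), adjusted p = 1.2e-05), and the lines overlapped with them. RFC4 and RFC5 have exons that overlap EIF4A2 and WSB2 on the opposite strand, so part of their reads may belong there. GINS2, FANCI, CHAF1A, TYMS and MCM7 likewise overlap exons of GSE1, POLG, UBXN6, ENOSF1 and AP4M1 on the opposite strand.

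The polymerase genes differed in the size of their fall. POLE2 and POLD1, the second subunit of polymerase epsilon and the catalytic subunit of polymerase delta, were called lower in both lines. POLD1 had 35.9, 34.8 and 42.3 normalised CPM in HaCaT_ctrl, 67.1, 52.5 and 56.5 in HaCaT_sh, 9.73, 10.4 and 9.29 in HaCaT_ctrl+cyto and 9.69, 7.88 and 9.07 in HaCaT_sh+cyto. Its fall was log2 -1.97 ± 0.11 (SE), adjusted p = 7.9e-08 in HaCaT_ctrl and log2 -2.73 ± 0.12 (SE), adjusted p = 7.0e-09 in HaCaT_sh. POLE2, with 18 to 261 reads a library, had log2 fold changes of -2.06 and -2.77. POLE, the catalytic subunit of polymerase epsilon, fell by 0.27 and 0.65 on the log2 scale, and POLA1, that of the polymerase that lays primers with primase, by 0.82 and 1.04. The pass of POLE in HaCaT_ctrl was lost without any 1 of 5 of the 6 libraries, all but HaCaT_ctrl+cyto replicate 3. PRIM1, the primase subunit, fell by 1.34 and 2.34, and its exons overlap NACA on the same strand.

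LIG1 and FEN1 act at the same step, the joining of lagging strand fragments, and parted. LIG1 (ENSG00000105486, GRCh37 chr19:48618702-48673860, minus strand), DNA ligase I, had 47.3, 47.8 and 48.6 normalised CPM in HaCaT_ctrl and 7.74, 8.65 and 8.497 in HaCaT_ctrl+cyto. In HaCaT_sh it had 84.4, 77.8 and 73.04, and 8.65, 9.02 and 11.3 in HaCaT_sh+cyto. The fall was log2 -2.56 ± 0.08 (SE), adjusted p = 3.4e-09 in HaCaT_ctrl and log2 -3.04 ± 0.10 (SE), adjusted p = 1.4e-09 in HaCaT_sh, with wide gaps between the groups. FEN1, the flap nuclease, had 67.5, 62 and 72.6 in HaCaT_ctrl, 67.96, 56.1 and 49.03 in HaCaT_sh, 70.3, 70.2 and 59.9 in HaCaT_ctrl+cyto and 52.3, 54.8 and 50.6 in HaCaT_sh+cyto, and passed in neither line (-0.04 and -0.15). FEN1 shares exonic sequence with FADS2 on its strand. Of the genes that restore chromatin and its methylation behind the fork, CHAF1A of the histone chaperone CAF-1 fell in both lines (-0.50 and -1.18), while its partner CHAF1B and the maintenance methyltransferase DNMT1 did not pass in HaCaT_ctrl (0.01 and -0.07) and fell by less than 2-fold in HaCaT_sh (-0.51 and -0.42). CHAF1B shares exonic sequence with MORC3 on its strand.

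Of the repair genes, 4 of 6 were called lower with cytokines in HaCaT_ctrl and 5 of 6 in HaCaT_sh, beside 21.1% and 21.0% of all genes. FANCI, partner of FANCD2 in the clamp of the Fanconi pathway, had 125, 112 and 131.5 normalised CPM in HaCaT_ctrl, 196.5, 182 and 178 in HaCaT_sh, 44, 56.7 and 56.7 in HaCaT_ctrl+cyto and 38.8, 39.2 and 44.4 in HaCaT_sh+cyto. It fell by log2 -1.26 ± 0.10 (SE), adjusted p = 1.6e-06 in HaCaT_ctrl and log2 -2.20 ± 0.07 (SE), adjusted p = 1.1e-09 in HaCaT_sh, and the groups lay apart in each line. FANCD2 (-1.60 and -2.13), the resection nuclease EXO1 (-1.48 and -2.68) and the helicase BLM (-1.32 and -2.07) were called lower in both lines too. BRCA1, which promotes the resection of broken ends, had 72.7, 64.2 and 72.8 in HaCaT_ctrl, 108.5, 93.8 and 90.5 in HaCaT_sh, 28.9, 41.3 and 41.6 in HaCaT_ctrl+cyto and 26.2, 27.97 and 27.6 in HaCaT_sh+cyto. It fell by 0.94 in HaCaT_ctrl, short of 2-fold, and by 1.86 in HaCaT_sh.

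BRCA2, which acts in homologous recombination, was the repair member that was lower in HaCaT_sh without cytokines. It had 20.9, 17.3 and 22.6 normalised CPM in HaCaT_ctrl, 17.7, 13.6 and 16.6 in HaCaT_sh, 14.1, 21.4 and 21.4 in HaCaT_ctrl+cyto and 11.4, 11.1 and 9.93 in HaCaT_sh+cyto. Its change with cytokines did not pass in HaCaT_ctrl (-0.13) and was a fall of less than 2-fold in HaCaT_sh (log2 -0.58 ± 0.13 (SE), adjusted p = 0.00159). Between the lines it was lower in HaCaT_sh both without cytokines (log2 -0.38 ± 0.11 (SE), adjusted p = 0.00737, with 1 pair of libraries out of order) and with them (log2 -0.81 ± 0.18 (SE), adjusted p = 0.00943). The first of these passes was lost without HaCaT_ctrl replicate 1 or 3 or HaCaT_sh replicate 2, and the second without HaCaT_ctrl+cyto replicate 2 or 3 or any HaCaT_sh+cyto library. The median of the 29 tested genes within 5 Mb of BRCA2 was also lower without cytokines, at -0.31. The ratio of BRCA1 to FANCD2 counts was 2.72 ± 0.23 (SD, n = 3) in HaCaT_ctrl, 2.71 ± 0.075 in HaCaT_sh, 4.36 ± 1.2 in HaCaT_ctrl+cyto and 3.29 ± 0.26 in HaCaT_sh+cyto. It was higher with cytokines in each HaCaT_sh library (exact permutation p = 0.1), and the libraries of HaCaT_ctrl overlapped (exact p = 0.2).

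Between the lines without cytokines, 21 of the 42 members were higher in HaCaT_sh at an adjusted p below 0.01 and 2 (MCM3 and BRCA2) lower, against 25.6% and 25.3% of all 13719 genes. Only CDT1 was called at 2-fold higher and none lower, where 3.80% and 5.07% of all genes were called. At an unadjusted p below 0.05, 4 members were lower in edgeR, as in DESeq2 and limma-voom. All 3 HaCaT_sh libraries lay above those of HaCaT_ctrl for 24 members, as for 36.5% of all genes, and the median log2 fold change was 0.31 against -0.0021 over all genes. Without HaCaT_ctrl replicate 2, the library lowest in nearly every member, 18 members were higher, and without HaCaT_sh replicate 1 the median was 0.21 and 6 members were lower. The count of lower members was 0 without HaCaT_ctrl replicate 1 or 3 or HaCaT_sh replicate 2 and 1 without HaCaT_sh replicate 3. After CDT1 the smallest p values were those of TYMS (log2 0.91 ± 0.08 (SE), adjusted p = 9.2e-08) and LIG1 (log2 0.68 ± 0.06 (SE), adjusted p = 1.1e-07). Genes near these 2 were higher too: the median log2 fold change was 0.46 over 21 genes within 5 Mb of TYMS and 0.45 over 226 genes near LIG1, while that near CDT1 was 0.03 over 63. The part of these neighbourhoods in the results was not tested.

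With cytokines the median difference between the lines was negative. Of the 42 members 8 were lower in HaCaT_sh+cyto at an adjusted p below 0.01 and none higher, against 5.86% and 6.01% of all 12693 genes, and 2 were called lower and none higher against 1.63% and 2.50%. The libraries lay apart, lower in HaCaT_sh+cyto, for 22 members, as for 23.0% of all genes, and the median was -0.32 against -0.0049. No member was higher at an unadjusted p below 0.05 in edgeR, DESeq2 or limma-voom. Among the 8 were RRM1 (log2 -0.73 ± 0.12 (SE), adjusted p = 0.00308), RRM2 (log2 -0.88 ± 0.15 (SE), adjusted p = 0.00315), GINS2 (-0.89) and MCM7 (-0.45), besides MCM10, CDC45, ORC1 and BRCA2. These counts rested on single libraries. Without HaCaT_ctrl+cyto replicate 1 there were 16 lower members and 4 called, without its replicate 2, its replicate 3 or HaCaT_sh+cyto replicate 1 none of either, and without HaCaT_sh+cyto replicate 2 or 3 there were 3 or 4 lower and 1 called. The median of 89 tested genes within 5 Mb of MCM7 was also lower with cytokines, at -0.31 on the log2 scale. Near BRCA2 it was -0.21 over 25 genes, while near ORC1 it was -0.02 and near GINS2 -0.01. The part of these neighbourhoods was not tested.

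The interaction tested the difference of the cytokine responses over all 12 libraries, and it was negative for 40 of 42 members. At an adjusted p below 0.01 the interaction was negative for 14 members and positive for none, against 4.44% and 3.76% of all 13296 genes. CDC6 and ORC6 among them did not pass with cytokines in HaCaT_ctrl itself (0.24 and -0.08). Of the 14, 9 passed 2-fold in the interaction, against 1.23% lower and 1.40% higher of all genes. None was positive at an unadjusted p below 0.05 in edgeR, DESeq2 or limma-voom. The 9 were CDT1, ORC1, CDC45, RRM2, TYMS, EXO1, MCM10, CDC6 and ORC6, and the others FANCI, BRCA1, POLD1, RRM1 and CHAF1A. The median over the members was -0.57 on the log2 scale, and 0.0038 over all genes. RRM2 had log2 -1.45 ± 0.21 (SE), adjusted p = 4.2e-04, TYMS log2 -1.22 ± 0.19 (SE), adjusted p = 7.6e-04 and FANCI log2 -0.93 ± 0.13 (SE), adjusted p = 4.0e-04. Helicase loading genes made 4 of the 9, and none of the 6 MCM2-7 subunits passed. Without HaCaT_ctrl+cyto replicate 1 the interaction passed for 23 members and without HaCaT_ctrl replicate 2 for 10, with medians of -0.46 to -0.68 over the 12 fits that each left out 1 library. MCM10 (adjusted p = 0.00919) passed in only 1 of those 12 fits, the one without HaCaT_ctrl+cyto replicate 1. Across the 42 members the responses of the lines, which share no library, had a Pearson correlation of 0.91 and a Spearman correlation of 0.90, as a description over genes of the same cells.

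**Figure D5:**
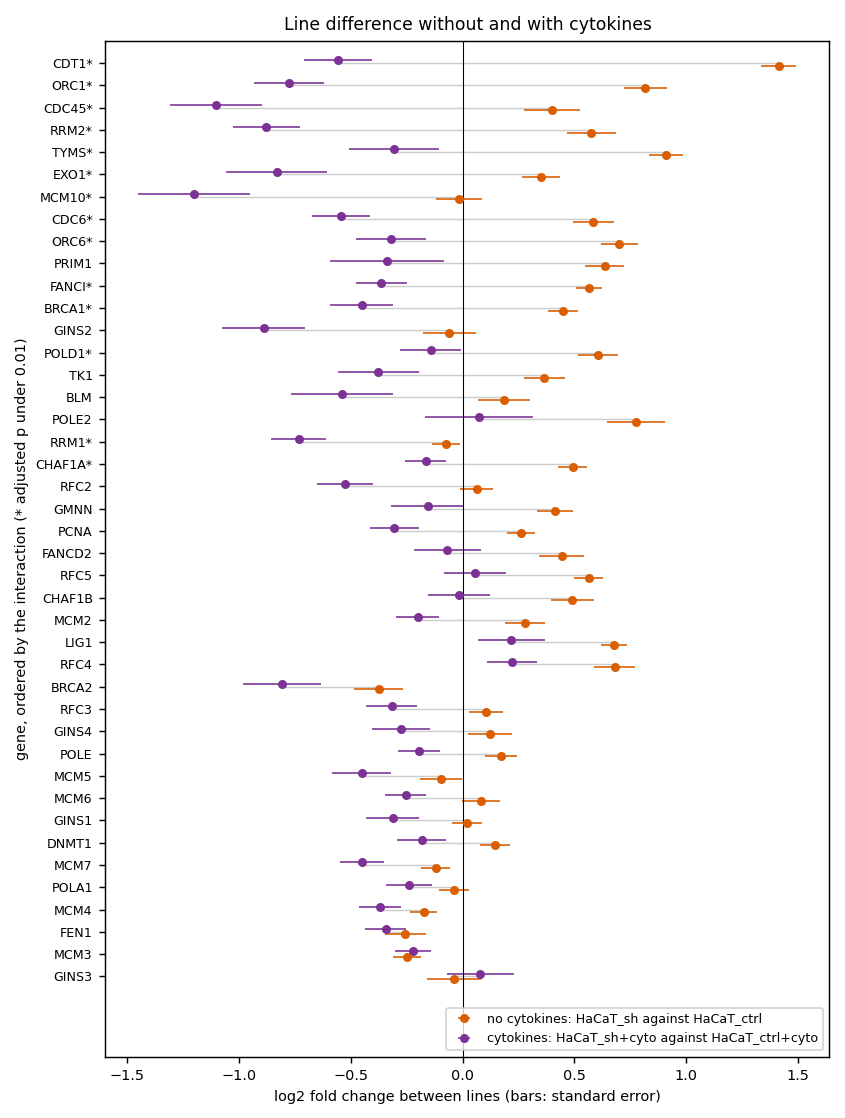
For each of the 42 genes (rows, ordered by the interaction), points give the log2 fold change of HaCaT_sh against HaCaT_ctrl without cytokines (orange) and with them (purple), with bars for the standard error. CDT1 goes from 1.41 to -0.56 and ORC1 from 0.82 to -0.77, while MCM3 stays near -0.25 and -0.22.

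Lists of other genes of the same pathways are read against all genes, of which 21.1% were called lower and 14.7% higher in HaCaT_ctrl+cyto and 21.0% and 14.9% in HaCaT_sh+cyto. Of 42 further replisome and licensing genes, 10 were called lower and 1 higher in HaCaT_ctrl+cyto and 17 lower and none higher in HaCaT_sh+cyto, with medians of -0.29 and -0.83, and the first of these lower counts is near the share of all genes. RECQL4, a helicase of replication start, fell by 2.46 and 3.15 on the log2 scale. Of 35 further homologous and crosslink repair genes 10 were called lower and 1 (MUS81, 1.42) higher in HaCaT_ctrl+cyto, and 18 lower and 1 higher in HaCaT_sh+cyto. EME1, partner of MUS81 in a junction nuclease, was called higher in HaCaT_sh without cytokines (1.12), fell by 2.94 with them and had an interaction of log2 -1.65 ± 0.21 (SE), adjusted p = 2.0e-04. RAD54L was the other repair gene called higher in HaCaT_sh (1.05).

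Of 9 end joining genes tested, 3 were called higher and 2 lower in HaCaT_ctrl+cyto. These counts, like those of the mismatch repair, E2F and checkpoint lists, rest on few genes and were not set apart from the shares of all genes by a test. PARP1 and XRCC1 fell by 1.87 and 1.58 on the log2 scale, and LIG3 (1.11), LIG4 (1.01) and PRKDC (1.09) rose. In HaCaT_sh+cyto 2 were called higher and 2 lower. Of 7 mismatch repair genes 3 were higher and 1 lower in HaCaT_ctrl+cyto at an adjusted p below 0.01, all by less than 2-fold. At any fold 34.9% of all genes were higher and 35.8% lower there. Of 13 E2F and RB family genes 2 were called higher (E2F5, 1.91, and E2F3, 1.24) and 3 lower (E2F8, -2.31, E2F2, -1.23, and RBL2, -1.57) in HaCaT_ctrl+cyto, and the same 5 genes were called in the same directions in HaCaT_sh+cyto. E2F1 was the family member with a called interaction (log2 -1.05 ± 0.19 (SE), adjusted p = 0.00205). Of 9 checkpoint genes CDC25A was called higher in HaCaT_ctrl+cyto (1.23) and CHEK1 and RAD9A lower in HaCaT_sh+cyto (-1.49 and -1.15).

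Of 10 other proliferation markers (MKI67, TOP2A, CCNA2, CCNB1, CDK1, PLK1, AURKB, BUB1, FOXM1 and MYBL2) all were called lower in both lines, with median log2 fold changes of -3.46 and -4.60. Of all genes, 21.1% were called lower in HaCaT_ctrl+cyto and 21.0% in HaCaT_sh+cyto. TOP2A, the mitotic topoisomerase, had log2 fold changes of -5.07 and -5.97 and CDK1 of -3.97 and -5.40. Of these 10 markers, 5 had a called negative interaction, beside 1.23% of all 13296 genes. CDK1 (log2 -1.41 ± 0.17 (SE), adjusted p = 9.3e-05) and AURKB (log2 -1.39 ± 0.24 (SE), adjusted p = 0.00122) were among the 5. The part of these markers in the values of the replication and repair genes was not tested.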

How the data were processed

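RNA of 12 HaCaT libraries (4 groups of 3 biological replicates, grouped by the deposited labels) was sequenced as 2 × 250 base pairs from NEBNext Ultra II Directional libraries. The authors trimmed reads with Cutadapt (quality 10, minimum length 25), mapped them with STAR to hg19 with Gencode release 19 and deposited raw counts per gene. How reads were counted, whether by strand, and with which versions is not given in the sources used here. A deposited CPM table was left out. The members and gene lists were chosen with earlier results of these data known. Each comparison was fitted on its own libraries (the interaction on all 12) after TMM scaling by edgeR's quasi-likelihood test, over genes that reached 1 CPM in 50% or more of the libraries fitted, with p adjusted by Benjamini-Hochberg over all tested genes. All 42 members passed the filter in each fit. Log2 fold changes carry a standard error derived from the F statistic. Values per library are given for the MCM2-7 subunits, CDT1, GMNN, PCNA, BRCA1, BRCA2, RRM1 and RRM2, and for the members with the smallest p in each direction of each comparison and in the interaction. MCM10 and FEN1 stand outside that rule and were named after their values were seen, as were other members given by fold change. Genes of other lists are those called with the smallest p. Summed levels and ratios were compared by exact permutation tests (52 tests, smallest adjusted p 0.13). Coordinates are those of GRCh37 from Gencode 44 lifted to that build, and promoter windows those of RefSeq (GRCh38.p14). The replicate numbers were not used to pair the libraries in the main fits. The fits were tested on simulated data. R 4.3.3, edgeR 4.0.16, limma 3.58.1, DESeq2 1.42.0 and Python 3.11.15 were used. Alternatives were RLE scaling, library size alone, no filter, filterByExpr, DESeq2, limma-voom, all 12 libraries in 1 fit, an adjusted p of 0.05, a block for the replicate number, and fits without each single library. Some genes of the lists are not reported here.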

Additional observations from a re-analysis of the deposited data

Results flagged for a closer look

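The change with cytokines differed between the lines for 14 members by the interaction test over all 12 libraries (edgeR, adjusted p below 0.01). Of all 13296 genes, 4.44% had a negative interaction at that threshold and 3.76% a positive one. Each value is the log2 fold change in HaCaT_sh minus that in HaCaT_ctrl, and all are negative. The helicase loading and activation genes were CDT1 (-1.97), ORC1 (-1.59), CDC45 (-1.50), MCM10 (-1.19), CDC6 (-1.13) and ORC6 (-1.02). The nucleotide supply genes were RRM2 (-1.45), TYMS (-1.22) and RRM1 (-0.66). The repair genes were EXO1 (-1.19), FANCI (-0.93) and BRCA1 (-0.90), and the others were POLD1 (-0.74) and CHAF1A (-0.66). With cytokines CDT1, CDC6, ORC6, TYMS, EXO1, FANCI, BRCA1, POLD1 and CHAF1A did not pass between the lines. Without cytokines each of these was higher in HaCaT_sh at an adjusted p below 0.01. Over 19 alternative fits the adjusted p of CDT1 ranged up to 0.000118 and that of ORC1 up to 0.000566. MCM10 (adjusted p up to 0.0338) passed in only 5 of the 19, RRM1 (0.0215) in 8, POLD1 (0.0222) in 9 and EXO1 (0.0130) in 17. The libraries labelled HaCaT_sh had more IQGAP3 RNA than HaCaT_ctrl without cytokines, so the direction rests on the labels, and no cause of the difference was tested.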

How the results depend on the processing

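No result changed direction past the threshold in any alternative run. In HaCaT_sh against HaCaT_ctrl the 2 lower members became 4 with library size alone, with no filter and at an adjusted p of 0.05, and 0 with all 12 libraries in 1 fit. With library size alone the median of all genes moved to -0.24 with cytokines in HaCaT_ctrl and -0.23 in HaCaT_sh, and the median of the members to -1.03 and -1.50; MCM2 and MCM6 still passed in HaCaT_ctrl+cyto, at 0.46 and 0.28. In HaCaT_sh+cyto against HaCaT_ctrl+cyto the 8 lower members became 15 with no filter, 15 with all 12 libraries in 1 fit, 13 with DESeq2, 5 with limma-voom (1 called at 2-fold in place of 2) and 17 at an adjusted p of 0.05. The 14 members of the interaction became 24 with no filter and 24 at an adjusted p of 0.05. The cause of these changes was not tested, apart from the looser threshold itself.

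With the replicate number as a block (replicate block) the 8 lower members became 5, and no other count of members moved by over 1.5 times. Correlations of deviations between same-numbered libraries lay between -0.157 and 0.238, and those between other libraries of different groups between -0.307 and 0.3. The numbers were not used as pairs in the main fits. Whether same-numbered libraries were handled together cannot be told from these values.

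Leaving out each library in turn gave ranges of 0 to 6 lower members and medians of 0.21 to 0.38 in HaCaT_sh against HaCaT_ctrl, 0 to 1 higher in HaCaT_sh+cyto against HaCaT_sh, 0 to 4 called and 0 to 16 lower in HaCaT_sh+cyto against HaCaT_ctrl+cyto, and 10 to 23 in the interaction. Of 3360 member values under an alternative, 116 lost and 116 gained the threshold, and 45 that passed in neither fit changed sign.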
